A study of Mus musculus with 20 samples.

Results

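The glial cell line-derived neurotrophic factor (GDNF) family was followed in mouse dorsal root ganglion (DRG) neurons through 3 of its ligands, Gdnf, Artn and Nrtn, the shared receptor tyrosine kinase Ret, and 3 of its co-receptors, Gfra1, Gfra2 and Gfra3. Members were chosen by gene name: every non-control probe that the array annotation assigns to one of these names was taken, whatever its values, which gave 7 genes of the 30222 gene names on the array, each with 1 probe and 1 spot. DRG neurons in culture were driven with action potentials in 2 temporal patterns for 2 or 5 hr, and RNA abundance was measured on two-colour microarrays, so the question for each member was whether its RNA level differs with stimulation, with its pattern and with its duration.

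GDNF family ligands are secreted proteins that bind a GFRα co-receptor anchored to the outer cell membrane, and the pair then recruits and activates Ret. Gdnf pairs mainly with Gfra1, neurturin (Nrtn) with Gfra2 and artemin (Artn) with Gfra3. In sensory ganglia these factors are known for supporting the survival, axon growth and maturation of subsets of neurons, including many nociceptors, and Ret is a marker of the subsets that come to depend on them.

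There were 20 samples in 5 conditions of 4 samples each. All came from cultures of NIH Swiss mouse embryos at embryonic day 13.5, grown with horse serum, treated with fluorodeoxyuridine against dividing non-neuronal cells, and used after 3 to 4 weeks. The titles and source names of the samples give DRG neurons, whereas the growth protocol in the labels names the spinal cord as the tissue dissociated, and the markers bearing on this are given with the cell type markers. The serum was withdrawn overnight before stimulation in every condition, the unstimulated control included. The other 4 conditions were 2 stimulation patterns, each given for 2 hr or for 5 hr. In the 18/1 pattern 18 action potentials were delivered every 1 min and in the 90/5 pattern 90 every 5 min, which keeps the total number equal. Cultures were pooled for RNA, and nothing in the labels ties a sample to its own set of animals, so p-values measure the spread between these samples, which may be partly technical.

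Both colours of each of the 10 arrays held samples of the same condition, and arrays shared 3 slides. Unstimulated and 18/1 2 hr were on slide 1, 18/1 5 hr and 90/5 2 hr on slide 2, and 90/5 5 hr on slide 3. Only 18/1 2 hr against unstimulated and 90/5 2 hr against 18/1 5 hr therefore share a slide. For the remaining comparisons slide and condition cannot be told apart. Arrays 5 and 6 (18/1 5 hr) and array 8 (90/5 2 hr) stood apart: between 3138 and 14642 of the 43020 non-control spots were marked there as non-uniform in a colour, against 6 to 139 in the other samples. The median spot was 3.64 to 10.4 times its background on slide 2, against 2.27 to 2.94 times on slide 1 and 2.66 to 4.91 times on slide 3. Samples of a condition correlated with r of 0.955 to 0.994 over genes, and no 2 samples held identical values.

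The sequences show what each signal stands for, since each member's values are the brightness of 1 probe of 60 bases. For the members whose levels the results turn on and for Ret, the last 30 bases of the deposited probe sequence are given in lower case, with the position of the whole probe in mouse build mm9 on the minus strand.
Artn, chr4:117598825-117598884: gctggaccagcctgtgctgaaaccagtccc
Nrtn, chr17:56890748-56890807: actgacttcacataaagtgtgggaactccc
Gfra1, chr19:58311604-58311663: caccaagtatctcctgtattttgctctgtg
Ret, chr6:118101791-118101850: aggtgactaaggaaataatttcagttgtgt
The Gdnf probe lies at chr15:7787474-7787533 and the Gfra2 probe at chr14:71379586-71379645, both on the plus strand. The longest run of bases shared between the probes of any 2 members was 8, and GC content ran from 35% to 58.3%. Whether a probe lies in a coding exon or an untranslated region was not analysed here, and a probe set to 1 stretch of a gene does not separate its isoforms.

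The family was present at very unequal distances from background. Nrtn spots were 28.8 to 158 times their background over the 20 samples (median 50.4) and Ret spots had a median of 55.5 times. The medians were 9.28 for Gfra3, 7.88 for Gfra1 and 5.34 for Artn, and they were lowest for Gfra2 at 2.13 and for Gdnf at 1.88. Brightness depends on the probe as well as on the RNA, so these ratios say how well each gene was measured and do not order the genes by abundance. Nrtn passed the spot filter (at least 2 times background and not marked as non-uniform) in all 20 samples. Artn, Ret, Gfra1, Gfra3 and Gdnf did not, and were tested among the 18744 genes that passed in all 4 samples of at least 1 condition. Gdnf did so only at 90/5 2 hr, where its spots reached 2 times background although the scanner called none of the 4 well above it. Gfra2 passed in neither way and has values only.

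**Figure D1:**
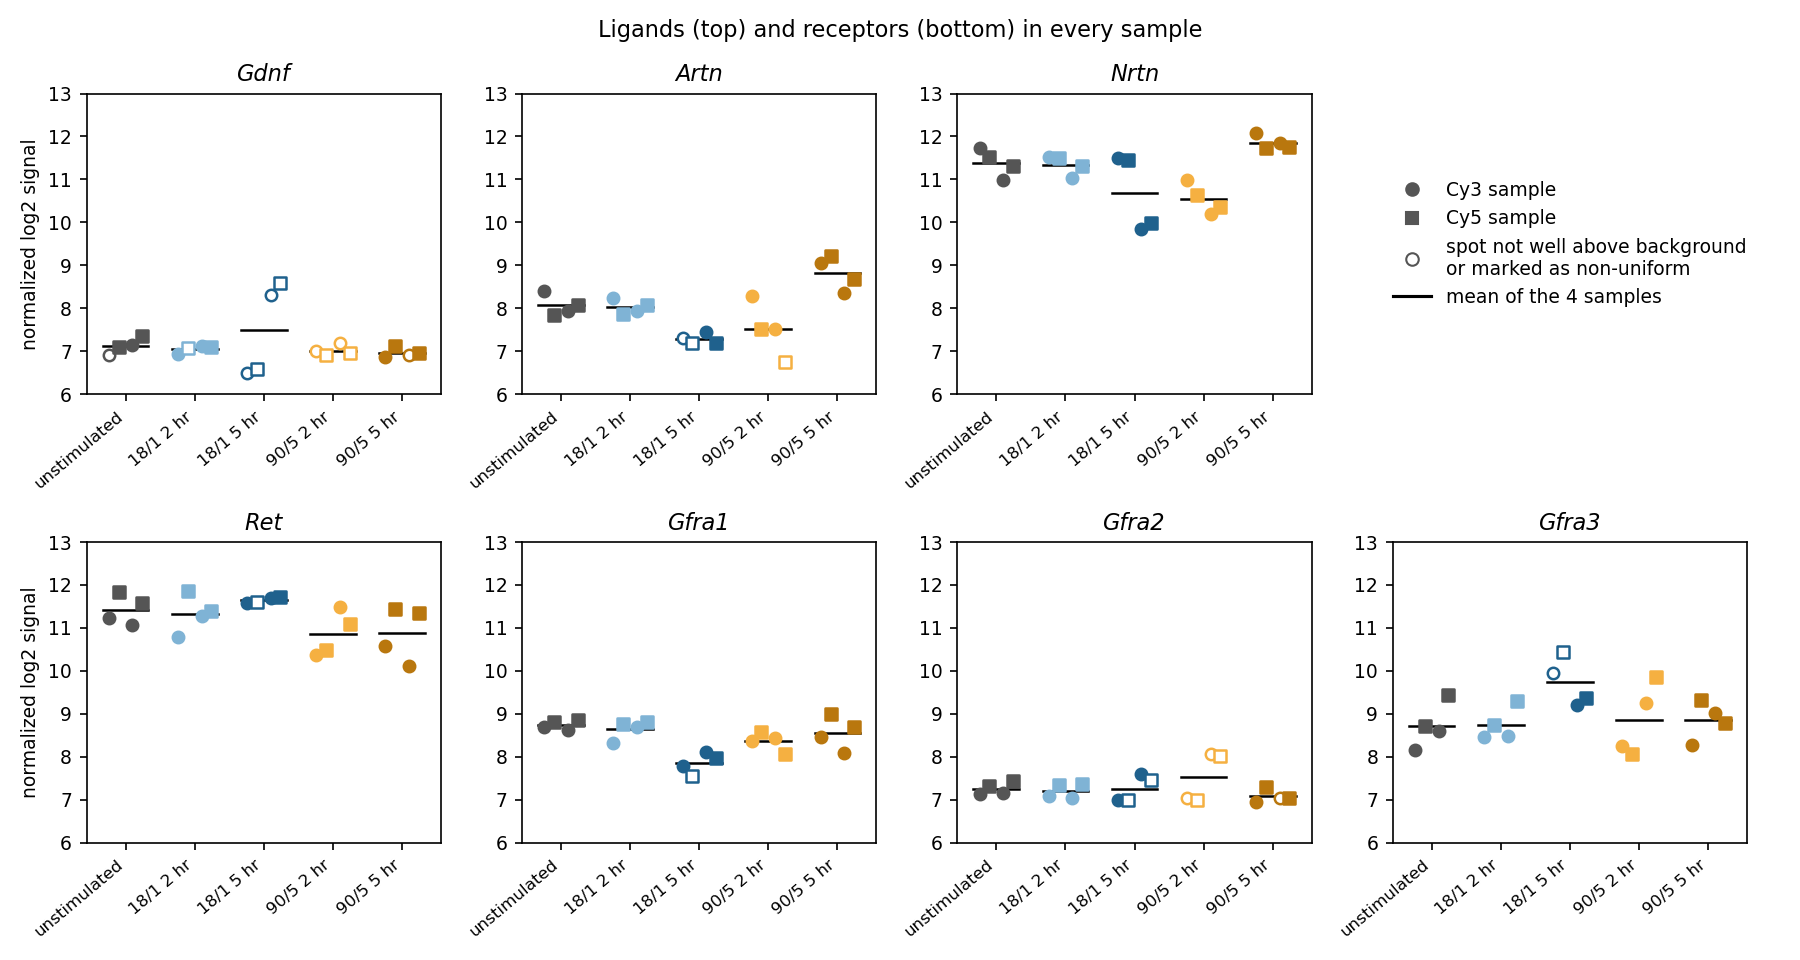
Normalized log2 signal (vertical axis) of the 3 ligands (top) and 4 receptors (bottom) in each of the 20 samples, by condition (horizontal axis). Circles are Cy3 and squares Cy5 samples, open symbols are spots not well above background or marked as non-uniform, and lines are means of 4 samples. Nrtn at 90/5 5 hr lay between 11.73 and 12.08, above its 4 unstimulated samples, and Artn at 18/1 5 hr lay below its unstimulated samples.

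After 2 hr of the 18/1 pattern the mean signal of every tested member was close to that of the control, within the same slide. The 6 differences ran from -0.10 to 0.02 on the log2 scale with a median of -0.05, none was called by limma with Benjamini-Hochberg adjustment (adjusted p under 0.05), none had an unadjusted p under 0.05, and in no member did the 4 stimulated samples fall wholly to one side of the controls. That comparison called 0.0193% of the 10355 genes that passed the filter in all 20 samples and 0.0213% of the 18744, with 6.14% and 5.63% not overlapping. The 95% intervals were wide, such as -1.02 to 0.84 for Ret and -0.93 to 0.97 for Gfra3. The absence of calls therefore does not show that the members were unchanged. The stimulation was effective by its known markers: the summed level of Nr4a1, Npas4, Egr1, Fos and Rgs2 was 10.83 to 11.24 in unstimulated samples and at least 14.31 in every stimulated sample.

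Neurturin RNA was the ligand measured farthest above background, and it was higher after 90/5 for 5 hr than after 90/5 for 2 hr or 18/1 for 5 hr. In unstimulated neurons its log2 signal was 11.72, 11.53, 10.98 and 11.32 (11.39 ± 0.32, SD, n = 4), and after 18/1 for 2 hr it was 11.53, 11.50, 11.02 and 11.31 (11.34 ± 0.23, SD, n = 4). The ranges of these 2 conditions overlapped. After 90/5 for 2 hr it was 10.98, 10.63, 10.19 and 10.37 (10.54 ± 0.35, SD, n = 4), and after 90/5 for 5 hr it was 12.08, 11.73, 11.84 and 11.75 (11.85 ± 0.16, SD, n = 4). All 4 samples of 90/5 2 hr lay below those of 18/1 2 hr, and all 4 of 90/5 5 hr lay above every other sample of the study. After 18/1 for 5 hr the samples of array 5 were at 11.50 and 11.44 and those of array 6 at 9.85 and 9.99 (10.70 ± 0.90, SD, n = 4), so the arrays of this condition differed by 1.55 and the mean describes neither.

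Nrtn was 2.48-fold higher after 5 hr than after 2 hr of the 90/5 pattern, a log2 difference of 1.31 (95% confidence interval 0.58 to 2.04, SE 0.35, adjusted p = 0.0216, limma with Benjamini-Hochberg adjustment). At 5 hr it was 2.23-fold higher under 90/5 than under 18/1, a difference of 1.15 (0.43 to 1.88, SE 0.35, adjusted p = 0.0107, limma). The former call was lost without array 8 (1.04, adjusted p = 0.261), array 9 (1.26, adjusted p = 0.119) or array 10 (1.36, adjusted p = 0.145), and just missed without 90/5 5 hr replicate 4 (adjusted p = 0.0525). It was also lost with no filter, with means of arrays and with the methods' t-test after adjustment. The latter value rests on array 6: without it the difference was 0.38 (adjusted p = 0.260), without array 5 it was 1.93, and without array 9 or array 10 the call was lost too, at 1.10 (adjusted p = 0.0622) and 1.21 (adjusted p = 0.0527). It was lost as well with means of arrays, with only the conditions compared and with the methods' t-test after adjustment. With median centring it was 2.03, where the median of the 10355 genes was 0.93, so that Nrtn lay 1.10 above that median, against 0.93 above it without this centring. At 2 hr Nrtn was lower under 90/5 than under 18/1 by -0.80 (95% interval -1.53 to -0.07), which did not pass adjustment (adjusted p = 0.201, limma) but passed without array 5 or 6 (adjusted p = 0.0297 and 0.0281, limma). Against unstimulated neurons none of the 4 stimulated conditions passed: the differences were -0.05, -0.69, -0.85 and 0.46 for 18/1 2 hr, 18/1 5 hr, 90/5 2 hr and 90/5 5 hr. The second of these was -1.42 with median centring (adjusted p = 0.00534, limma), -1.47 without array 5 (adjusted p = 0.000840, limma) and 0.084 without array 6, and the third passed without array 5 or 6 (adjusted p = 0.0188 and 0.0174, limma). Within slide 2, 90/5 2 hr and 18/1 5 hr differed by -0.15 (-0.88 to 0.57), which has no settled direction: it was 0.59 with median centring, 0.62 without array 5 and -0.93 without array 6, where it passed (adjusted p = 0.0158, limma). Ordered by mean the conditions ran from 90/5 5 hr through unstimulated, 18/1 2 hr and 18/1 5 hr to 90/5 2 hr, and no neighbours in this order differed by the test.

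Artemin RNA, like that of neurturin, had its highest mean after 90/5 for 5 hr and its lowest means in the conditions of slide 2. It was 8.41, 7.84, 7.95 and 8.07 in unstimulated neurons (8.07 ± 0.25, SD, n = 4) and 8.25, 7.88, 7.93 and 8.07 after 18/1 for 2 hr (8.03 ± 0.16, SD, n = 4). After 18/1 for 5 hr it was 7.31, 7.20, 7.44 and 7.18 (7.28 ± 0.12, SD, n = 4), where both spots of array 5 were marked as non-uniform. These 4 samples lay below all 8 samples of slide 1, and the gap between the arrays was 0.05. After 90/5 for 2 hr Artn was 8.29, 7.53, 7.52 and 6.76 (7.52 ± 0.63, SD, n = 4), with 3 of 4 spots well above background, and this condition overlapped the controls. After 90/5 for 5 hr it was 9.05, 9.22, 8.37 and 8.69 (8.83 ± 0.38, SD, n = 4), and 3 of these samples exceeded every other sample of the study.

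At 5 hr Artn was 2.93-fold higher under 90/5 than under 18/1, a log2 difference of 1.55 (95% confidence interval 0.78 to 2.32, SE 0.37, adjusted p = 0.00314, limma). Every one of the 4 samples under 90/5 exceeded every one under 18/1. The call was lost only without array 9, where the difference was 1.24 (adjusted p = 0.0546), and it held under the 15 other settings at 1.48 to 1.75, including the fit with the marked spots set to missing. Relative to the median of the 10355 genes, however, Artn was 1.32 higher with all samples and 0.78 higher with median centring, where that median was 0.93. Artn itself was fitted among the 18744 genes, whose median in this comparison was 0.17 with all samples. From 2 hr to 5 hr of 90/5 Artn was 2.48-fold higher, by 1.31 (0.54 to 2.08, SE 0.37, adjusted p = 0.0340, limma). That call was lost without any one of arrays 1, 2, 3, 4, 8, 9 and 10, with differences of 0.92 to 1.61, and without 90/5 5 hr replicate 2 or 4. No filter, means of arrays, only the conditions compared and the methods' t-test after adjustment ended it too. Against unstimulated neurons Artn was lower by -0.78 after 18/1 for 5 hr (unadjusted p = 0.0468 and adjusted p = 0.102, limma) and higher by 0.76 after 90/5 for 5 hr (unadjusted p = 0.0522 and adjusted p = 0.9998, limma). The unadjusted values lie close together, and the adjusted ones depend on all genes of each comparison. Neither difference is a call, although all 4 samples of 18/1 5 hr lay below the controls in normalized signal. Before normalization those spots were 5.60 to 7.54 times background, against 2.93 to 5.53 times in the controls. The second difference was 0.46 without array 9. The first difference passed with no array block (adjusted p = 0.00944, limma), with the methods' t-test before and after adjustment, and without array 7 or 8 (adjusted p = 0.0340 and 0.0330, limma). With the replicate number as a block the second difference passed at the same 0.76 (adjusted p = 0.0340, limma), in a fit to 12 samples that called 4.01% of the 18744 genes for this comparison against 0.149% without the block, and the numbers of these 2 conditions did not meet the check for pairing. Within slide 2, 90/5 2 hr and 18/1 5 hr differed by 0.24 (95% interval -0.53 to 1.01, adjusted p = 0.710, limma), or by -0.14 without array 7 and 0.62 without array 8. The order by mean was 90/5 5 hr, unstimulated, 18/1 2 hr, 90/5 2 hr and 18/1 5 hr, and again no neighbours differed by the test.

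**Figure D2:**
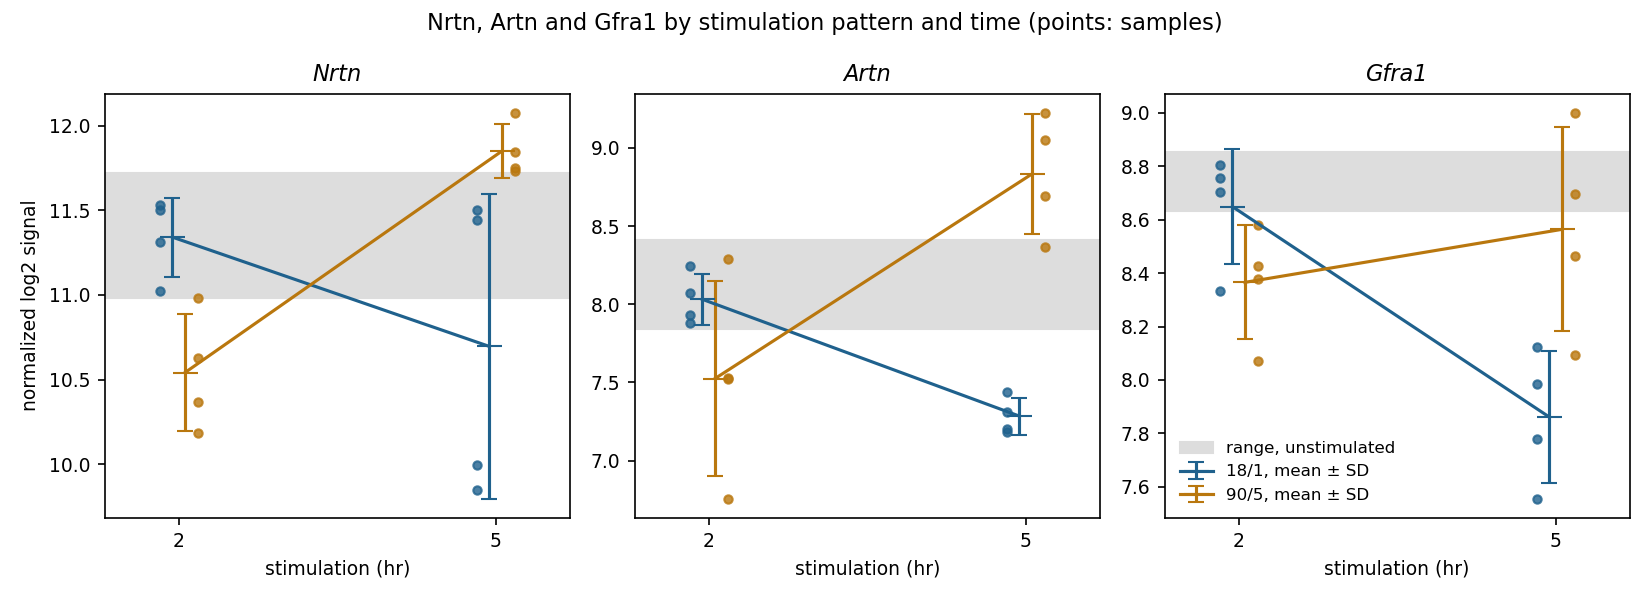
Normalized log2 signal of Nrtn, Artn and Gfra1 (vertical axes, each with its own scale that does not start at 0) against hours of stimulation for the 18/1 and 90/5 patterns. Points are samples, bars are mean ± SD of 4 samples and grey bands span the 4 unstimulated samples. Mean Nrtn under 90/5 was 10.54 at 2 hr and 11.85 at 5 hr, while mean Artn under 18/1 was 8.03 at 2 hr and 7.28 at 5 hr.

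The pattern difference itself changed with time for Nrtn and Artn. The 90/5 minus 18/1 difference at 5 hr exceeded that at 2 hr by 1.95 for Nrtn (SE 0.50, adjusted p = 0.00315, limma) and by 2.06 for Artn (SE 0.52, adjusted p = 0.00468, limma). Among all genes 44.9% of the 10355 and 38.4% of the 18744 were called in this contrast, so such a call was common. Both remained past the threshold under 13 other settings and when any one of the 10 arrays or 20 samples was left out, with Nrtn at 1.18 to 2.80 and Artn at 1.67 to 2.44 over all of these. The 2 conditions on slide 2 both enter this contrast with a minus sign, so a difference between slides and the change of the pattern effect cannot be told apart. Gfra1 had a value of 0.99 (SE 0.42, adjusted p = 0.0706, limma), and Gdnf, Ret and Gfra3 had -0.48, -0.30 and -1.0 with adjusted p of 0.232 or more. Gfra1 passed in this contrast with median centring, with no array block, without array 6 or 7 and without any one of 3 samples (array 6 Cy3, array 8 Cy3 and 90/5 5 hr replicate 3), Gdnf without array 5, and Gfra3 without array 7.

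The regions upstream of the start of Artn and Nrtn, which were called in the same comparisons, and of Gfra1, which was called in others, are shown for their sequence context. They are the 250 bases before the annotated start from RefSeq, mouse build GRCm38.p6, minus strand, written 5′ to 3′ in lower case with matches to the motifs named below in capitals.
Artn, chr4:117929764-117930013: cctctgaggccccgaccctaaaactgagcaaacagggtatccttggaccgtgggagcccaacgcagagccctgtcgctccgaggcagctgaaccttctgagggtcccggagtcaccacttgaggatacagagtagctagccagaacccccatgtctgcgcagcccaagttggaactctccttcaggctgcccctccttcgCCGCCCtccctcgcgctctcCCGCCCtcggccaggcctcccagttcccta
Nrtn, chr17:56757549-56757798: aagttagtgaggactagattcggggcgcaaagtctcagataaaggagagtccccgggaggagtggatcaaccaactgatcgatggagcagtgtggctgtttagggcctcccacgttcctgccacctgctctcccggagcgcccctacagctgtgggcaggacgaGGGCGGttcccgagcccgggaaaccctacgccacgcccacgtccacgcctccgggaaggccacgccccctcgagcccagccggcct
Gfra1, chr19:58455399-58455648: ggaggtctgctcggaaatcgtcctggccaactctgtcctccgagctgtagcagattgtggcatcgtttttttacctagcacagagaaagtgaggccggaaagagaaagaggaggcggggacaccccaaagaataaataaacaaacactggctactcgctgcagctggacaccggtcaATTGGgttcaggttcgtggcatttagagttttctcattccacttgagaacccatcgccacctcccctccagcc
The motifs, 7 in all, were searched on both strands. The GC box letters GGGCGG matched 2 times upstream of Artn and 1 time upstream of Nrtn, and 32.7% of the 32851 such regions of the genome hold them. CCAAT matched 1 time upstream of Gfra1, against 33.8% of regions. The letters TGACG of the cAMP response element (17.8% of regions), TGANTCA of AP-1 sites (6.75%), GCGNGGGCG of Egr sites (4.7%), TATAAA (12.4%) and the E-box CACGTG (6.02%) were in none of these 3 windows. GC content was 63.6% for Artn, 64.8% for Nrtn and 52.4% for Gfra1, against a median of 52.4% and quartiles of 45.2% and 61.2% over all regions. A match is a description of letters and no site of binding.

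Gdnf, the founding ligand of the family, was at the limit of detection. Its log2 signal was 6.91, 7.11, 7.14 and 7.35 in unstimulated neurons (7.13 ± 0.18, SD, n = 4), 6.94, 7.07, 7.13 and 7.10 after 18/1 for 2 hr, 7.0, 6.91, 7.20 and 6.95 after 90/5 for 2 hr and 6.87, 7.11, 6.91 and 6.97 after 90/5 for 5 hr. These 4 conditions overlapped one another, and the spot was well above background in none of the 4 samples of 90/5 2 hr. At 18/1 5 hr it was 6.50 and 6.58 on array 5 and 8.31 and 8.58 on array 6 (7.49 ± 1.11, SD, n = 4), where the spots of array 6 were marked as non-uniform, so the samples of this condition were the lowest and the highest of the study at once. The 9 differences between conditions ran from -0.53 to 0.43 and none was called (lowest adjusted p = 0.271, limma). What was found for 18/1 5 hr turned on the array kept: against unstimulated its difference was 1.32 without array 5 (adjusted p = 0.000235, limma) and -0.58 without array 6 (adjusted p = 0.0182, limma), and with marked spots missing it was also -0.58 (adjusted p = 0.0365, limma). These calls have opposite directions, and no direction is read from them.

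Ret RNA, which encodes the kinase that all 3 ligands need, was bright in every condition and no difference was called. It was 11.23, 11.83, 11.07 and 11.57 in unstimulated neurons (11.43 ± 0.34, SD, n = 4) and 10.79, 11.87, 11.29 and 11.40 after 18/1 for 2 hr (11.33 ± 0.45, SD, n = 4). At 18/1 5 hr it was 11.59, 11.60, 11.69 and 11.72 (11.65 ± 0.06, SD, n = 4), the narrowest range of any condition, with the spot at 11.60 marked as non-uniform. The 18/1 5 hr samples lay inside the range of the controls. After 90/5 for 2 hr Ret was 10.36, 10.48, 11.49 and 11.09 (10.85 ± 0.53, SD, n = 4), and after 90/5 for 5 hr it was 10.59, 11.45, 10.12 and 11.34 (10.87 ± 0.63, SD, n = 4). All samples of both 90/5 conditions lay below those of 18/1 5 hr, by -0.80 at 2 hr within slide 2 (95% interval -1.72 to 0.13, adjusted p = 0.254, limma) and by -0.78 at 5 hr (-1.71 to 0.15, adjusted p = 0.174, limma). With samples centred on their medians the former difference was -0.01 and the latter turned to 0.11. Without array 7 the former was -0.36 (adjusted p = 0.741, limma). The former passed with no array block (adjusted p = 0.0277, limma), with the methods' t-test before adjustment and without array 8 (-1.23, adjusted p = 0.0302, limma), and the latter with no array block (adjusted p = 0.0170, limma). In 90/5 5 hr the Cy5 samples were the higher ones on both arrays, and colour was a term of the fit.

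Gfra1, the co-receptor that binds Gdnf, had a lower normalized signal at 18/1 5 hr than in the conditions of slide 1. Its log2 signal was 8.70, 8.81, 8.63 and 8.85 in unstimulated neurons (8.75 ± 0.10, SD, n = 4) and 8.33, 8.76, 8.71 and 8.80 after 18/1 for 2 hr (8.65 ± 0.21, SD, n = 4). After 18/1 for 5 hr it was 7.78, 7.56, 8.12 and 7.98 (7.86 ± 0.25, SD, n = 4), below every sample of both slide 1 conditions. The lowest of these, 7.56 on array 5, came from a spot marked as non-uniform. It was 8.38, 8.58, 8.43 and 8.07 after 90/5 for 2 hr (8.37 ± 0.21, SD, n = 4) and 8.47, 9.0, 8.10 and 8.69 after 90/5 for 5 hr (8.56 ± 0.38, SD, n = 4). The 90/5 2 hr samples all lay below the controls, whereas the 90/5 5 hr samples spread around them. Before normalization the 18/1 5 hr spots of Gfra1 were 7.47 to 13.2 times background, against 6.31 to 6.86 times in unstimulated samples. On slide 2 the median spot was also farther above background than on slide 1. Slide and condition cannot be told apart here.

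Normalized Gfra1 signal was 1.85-fold lower at 18/1 5 hr than in unstimulated neurons, a log2 difference of -0.89 (95% confidence interval -1.51 to -0.27, SE 0.30, adjusted p = 0.0251, limma). It was 1.73-fold lower after 5 hr than after 2 hr of 18/1, by -0.79 (-1.41 to -0.17, adjusted p = 0.0445, limma). In the first of these comparisons the median of the 10355 genes was itself -0.23, so Gfra1 lay -0.66 from it, and with samples centred on their medians the difference was -1.08 against a median of -0.81, which leaves -0.27. In the second comparison Gfra1 lay -0.56 from the median of -0.23, and with median centring it was -0.96 against -0.80, which leaves -0.16. Gfra1 itself was fitted among the 18744 genes, whose median was -0.18 in each of these comparisons. The first call was lost without array 1, 2, 4 or 5, with differences of -0.70 to -0.90 and adjusted p of 0.0552 to 0.145, and without 90/5 5 hr replicate 4 (adjusted p = 0.0503). The first was lost with no filter too (adjusted p = 0.0598, limma). The second was lost without array 1, 2, 3, 4, 5 or 10, without any one of 11 of the 20 samples, with no filter (adjusted p = 0.0930, limma), with saturated probes left out (adjusted p = 0.0531, limma) and with only the conditions compared (adjusted p = 0.0724, limma). Between patterns at 5 hr Gfra1 was higher under 90/5 by 0.70 (0.08 to 1.33), which missed the threshold (adjusted p = 0.0687, limma). It passed with median centring (adjusted p = 0.0232, limma), with no array block (adjusted p = 0.00296, limma), with the methods' t-test before adjustment, without array 6, 7 or 8, and without any one of 4 samples (array 6 Cy3, array 8 Cy5, and 90/5 5 hr replicates 1 and 3). The differences from unstimulated were -0.10, -0.38 and -0.19 after 18/1 2 hr, 90/5 2 hr and 90/5 5 hr. Within slide 2, 90/5 2 hr was above 18/1 5 hr by 0.50 (95% interval -0.12 to 1.13, adjusted p = 0.283, limma), which passed with no array block (adjusted p = 0.0406, limma) and with the methods' t-test before adjustment, and was 0.31 without array 5.

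Gfra3, the artemin co-receptor, had its highest signals at 18/1 5 hr. It was 8.16, 8.72, 8.60 and 9.43 in unstimulated neurons (8.73 ± 0.53, SD, n = 4) and 8.46, 8.74, 8.49 and 9.30 after 18/1 for 2 hr (8.75 ± 0.39, SD, n = 4). At 18/1 5 hr it was 9.95, 10.43, 9.20 and 9.37 (9.74 ± 0.56, SD, n = 4), with the higher pair on array 5, whose spots were marked as non-uniform. Array 6 overlapped the controls. It was 8.24, 8.06, 9.24 and 9.87 after 90/5 for 2 hr (8.85 ± 0.85, SD, n = 4) and 8.27, 9.32, 9.02 and 8.78 after 90/5 for 5 hr (8.85 ± 0.44, SD, n = 4). The difference of 18/1 5 hr from unstimulated was 1.01 (95% interval 0.06 to 1.97, adjusted p = 0.0880, limma) and that from 18/1 2 hr was 0.99 (adjusted p = 0.0947, limma), so neither passed. The first was 0.32 with median centring, 0.56 with marked spots missing or without array 5, and 1.47 without array 6 (adjusted p = 0.0150, limma), and the second moved likewise to 0.32, 0.54 and 1.45. Both passed without array 6, 7 or 8 and with no array block (adjusted p = 0.0195 and 0.0217, limma). Between patterns at 5 hr Gfra3 differed by -0.89 (adjusted p = 0.131, limma), a value that was -0.089 with median centring and -0.44 with marked spots missing or without array 5, and that passed with no array block (adjusted p = 0.0366, limma) and without array 6 or 7. Within slide 2, 90/5 2 hr against 18/1 5 hr also gave -0.89 (adjusted p = 0.217, limma), which was -0.33 with median centring, -0.18 without array 7, and passed at -1.34 without array 6 and -1.59 without array 8.

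Gfra2, the neurturin co-receptor, was close to background, and its spot passed the filter in 9 of 20 samples. It was 7.13, 7.31, 7.16 and 7.44 in unstimulated neurons (7.26 ± 0.14, SD, n = 4), 7.08, 7.35, 7.04 and 7.37 after 18/1 for 2 hr and 6.96, 7.31, 7.04 and 7.03 after 90/5 for 5 hr. After 18/1 for 5 hr it was 6.99, 6.99, 7.60 and 7.45, and after 90/5 for 2 hr it was 7.05, 6.99, 8.06 and 8.01. The 2 highest values came from array 8, where both spots were marked as non-uniform, and the 5 conditions otherwise overlapped. No test was made for Gfra2.

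**Figure D3:**
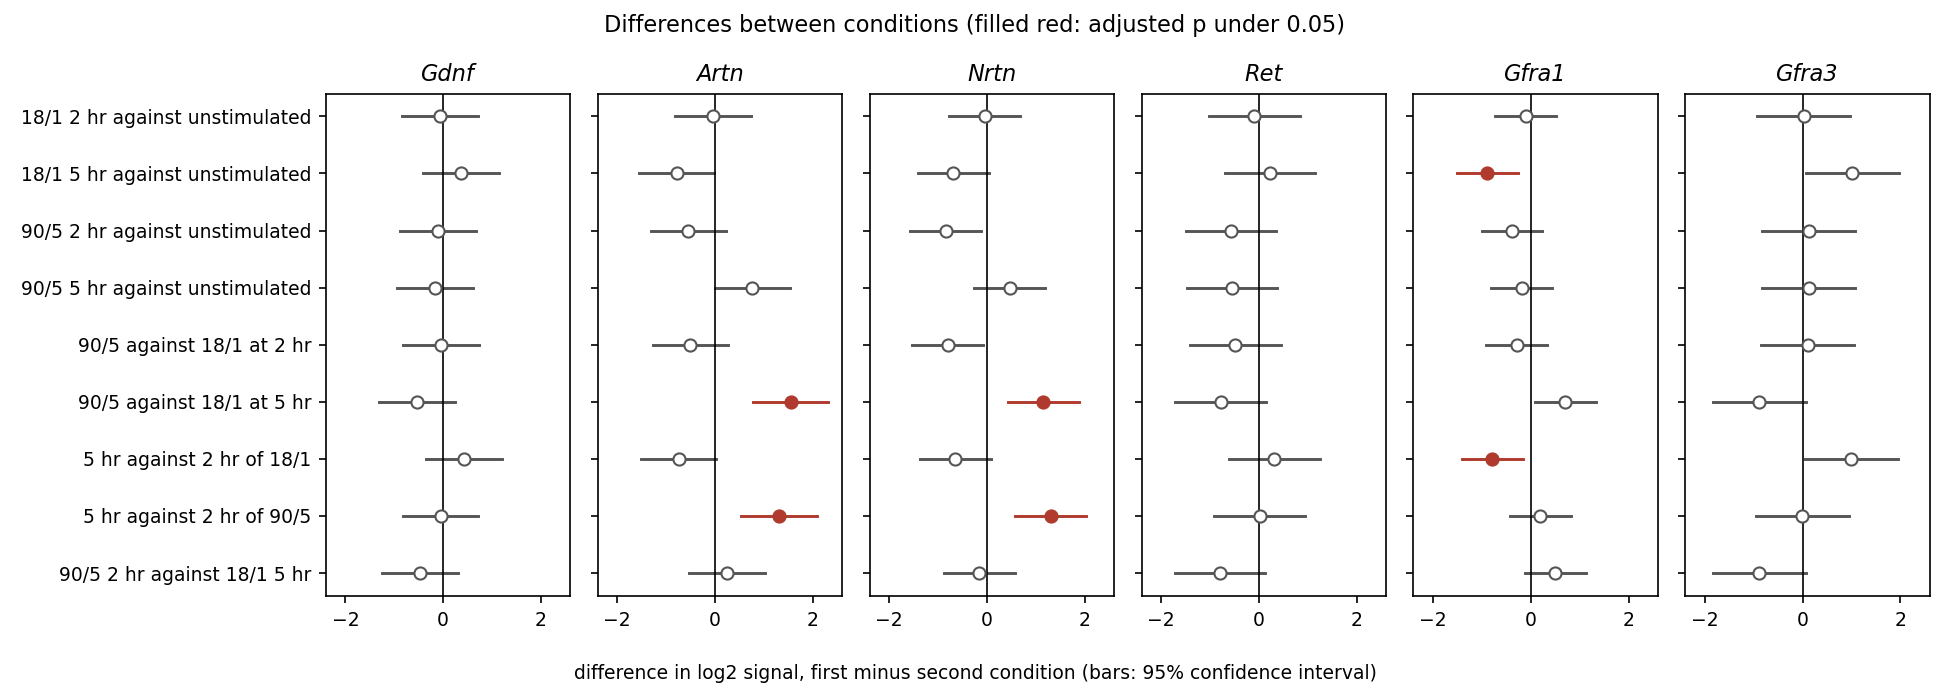
Differences in log2 signal between conditions (horizontal axis, first minus second condition) for the 6 tested members over the 9 comparisons (vertical axis), with 95% confidence intervals from limma. Filled red points passed an adjusted p of 0.05: Gfra1 in 2 comparisons at -0.89 and -0.79, and Artn and Nrtn in 2 comparisons each at 1.15 to 1.55.

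Counts of members called are given here beside the shares of all genes called in the same comparison. For 18/1 5 hr against unstimulated 1 of 6 tested members was called and 2 did not overlap the controls, where 44.6% of the 10355 genes and 37% of the 18744 were called, 29.7% and 23.6% as lower, and 53.8% and 52.6% did not overlap. The members' median difference was -0.23, and the medians were -0.23 for the 10355 genes and -0.18 for the 18744. Of the 6 tested members 5 were fitted among the 18744. For 90/5 2 hr against unstimulated none of 6 was called by limma (1 at an unadjusted p under 0.05, Nrtn) and 1 did not overlap, against 7.03% and 5.13% called and 26.4% and 28.2% not overlapping. The medians were -0.46 for the members, -0.08 for the 10355 genes and -0.10 for the 18744. For 90/5 5 hr against unstimulated none was called by limma (0 at an unadjusted p under 0.05) and 1 did not overlap, against 0.0676% and 0.149% called and 11.7% and 14.2% not overlapping. Here the medians were -0.02 for the members, -0.01 for the 10355 genes and -0.02 for the 18744. The comparisons with unstimulated share the same 4 control samples.

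Between patterns at 2 hr none of 6 members was called by limma (1 at an unadjusted p under 0.05, Nrtn) and 1 did not overlap, against 5.02% and 3.92% of genes called and 18.5% and 22.5% not overlapping. At 5 hr Artn and Nrtn were called higher under 90/5 and 3 members did not overlap, and 45.5% of the 10355 genes and 38.2% of the 18744 were called, 29.6% and 23.8% of all genes as higher, with 46.4% not overlapping under either filter. The members' median was 0.09, that of the 10355 genes 0.23 and that of the 18744 genes 0.17. From 2 to 5 hr of 18/1 Gfra1 was the 1 member called, against 44.2% and 36.4% of genes, 28.8% and 22.8% as lower, and 2 members did not overlap, against 49.3% and 49%. From 2 to 5 hr of 90/5 both Artn and Nrtn were called, 2 of 6 tested, and these 2 did not overlap, where 9.01% of the 10355 genes and 7.9% of the 18744 were called in either direction, 4.7% and 4.57% as higher, and 19.2% and 22.9% did not overlap. Within slide 2, 90/5 2 hr against 18/1 5 hr called none of 6 members, against 12.9% and 8.94% of genes, and only Ret did not overlap, against 20.1% and 20.5%. With all samples, in neither of the 2 comparisons within a slide was a member called by limma, and in neither did a member have an unadjusted p under 0.05.

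**Figure D4:**
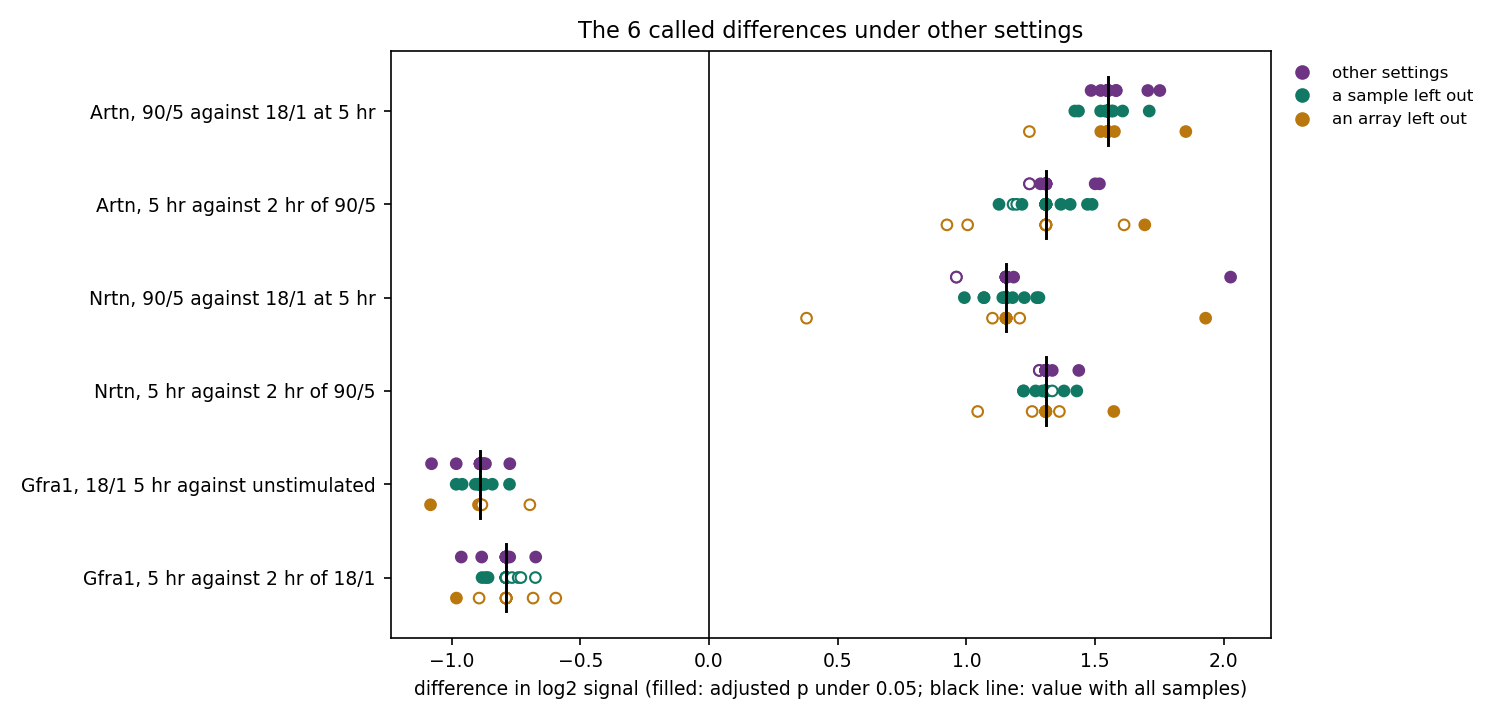
The 6 called differences in log2 signal (horizontal axis) recomputed with other settings, with a sample left out and with an array left out. Filled points kept an adjusted p under 0.05 and black lines are the values with all samples. Leaving out array 6 took Nrtn at 5 hr between patterns from 1.15 to 0.38, and Artn in that comparison stayed at 1.24 or above.

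Other genes of the pathway were read from a list of 40: further ligands and receptors, adaptors and relays that dock on active Ret, and brakes on its signal. All 40 were on the array and 34 were tested. Against unstimulated neurons 3 rose and 10 fell after 18/1 for 5 hr, with a median difference of -0.35. That median was -0.23 for the 10355 genes and -0.18 for the 18744. After 90/5 for 2 hr 2 rose and 1 fell. These calls are 38.2% and 8.82% of the list, against 44.6% and 7.03% of the 10355 genes and 37% and 5.13% of the 18744, so the shares lie near those of all genes. None was called by limma after 18/1 for 2 hr or 90/5 for 5 hr (1 and 2 at an unadjusted p under 0.05), and both conditions with calls lie on slide 2. Between patterns at 5 hr 6 were higher and 5 lower under 90/5, from 2 to 5 hr of 18/1 3 rose and 11 fell, and from 2 to 5 hr of 90/5 1 rose and 2 fell. Between patterns at 2 hr 1 was higher under 90/5, and within slide 2 4 were higher at 90/5 2 hr than at 18/1 5 hr and none lower. In the order of these 5 comparisons the list had 32.4%, 41.2%, 8.82%, 2.94% and 11.8% called, where the shares of the 10355 genes were 45.5%, 44.2%, 9.01%, 5.02% and 12.9% and those of the 18744 were 38.2%, 36.4%, 7.9%, 3.92% and 8.94%.

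Spry4, a Sprouty protein that restrains receptor tyrosine kinase signalling to ERK, had the largest rise of the list. It was 8.99, 8.91, 8.89 and 8.68 in unstimulated neurons, 11.65, 12.16, 11.67 and 11.98 after 18/1 for 5 hr and 10, 10.50, 11.49 and 11.69 after 90/5 for 2 hr. Both stimulated conditions lay wholly above the control, by 3.00 (SE 0.47, adjusted p = 0.000154, limma) and 2.05 (SE 0.47, adjusted p = 0.0165, limma), whereas 90/5 5 hr spanned 8.59 to 9.45. The highest value of each stimulated condition, 12.16 and 11.69, came from a spot marked as non-uniform. Frs3, a membrane-anchored docking protein of growth factor receptors, was 7.96, 8.02, 7.97 and 7.95 in unstimulated neurons, 9.88, 10.18, 10.12 and 10.76 after 18/1 for 5 hr and 9.20, 9.33, 10.24 and 10.70 after 90/5 for 2 hr. It was higher by 2.26 (SE 0.31, adjusted p = 4.68e-05, limma) and 1.90 (SE 0.31, adjusted p = 0.00140, limma), and its 90/5 5 hr samples lay at 7.69 to 7.86. The spot at 10.18 was marked as non-uniform. Shc3, a neuronal adaptor that binds phosphorylated receptors, was 9.60, 9.39, 8.92 and 9.23 in unstimulated neurons, 7.20, 6.60, 7.41 and 7.10 after 18/1 for 5 hr and 8.89, 8.58, 8.01 and 7.46 after 90/5 for 2 hr. It fell by 2.21 (SE 0.29, adjusted p = 1.15e-05, limma) and by 1.05 (SE 0.29, adjusted p = 0.0321, limma) in these conditions. Its spot was well above background in 3 of the 4 samples of 18/1 5 hr, with the sample at 6.60 the exception. Within slide 2 Shc3 was higher at 90/5 2 hr than at 18/1 5 hr by 1.16 (SE 0.29, adjusted p = 0.0163, limma), while Spry4 and Frs3 differed by -0.94 and -0.36 without passing the test. At 90/5 2 hr the values of all 3 genes lay farther from the control on array 8 than on array 7. Spry4, for example, was at 10 and 10.50 on array 7 and at 11.49 and 11.69 on array 8. The differences from unstimulated neurons cross slides, so slide and condition cannot be told apart, and they were not recomputed without an array.

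**Figure D5:**
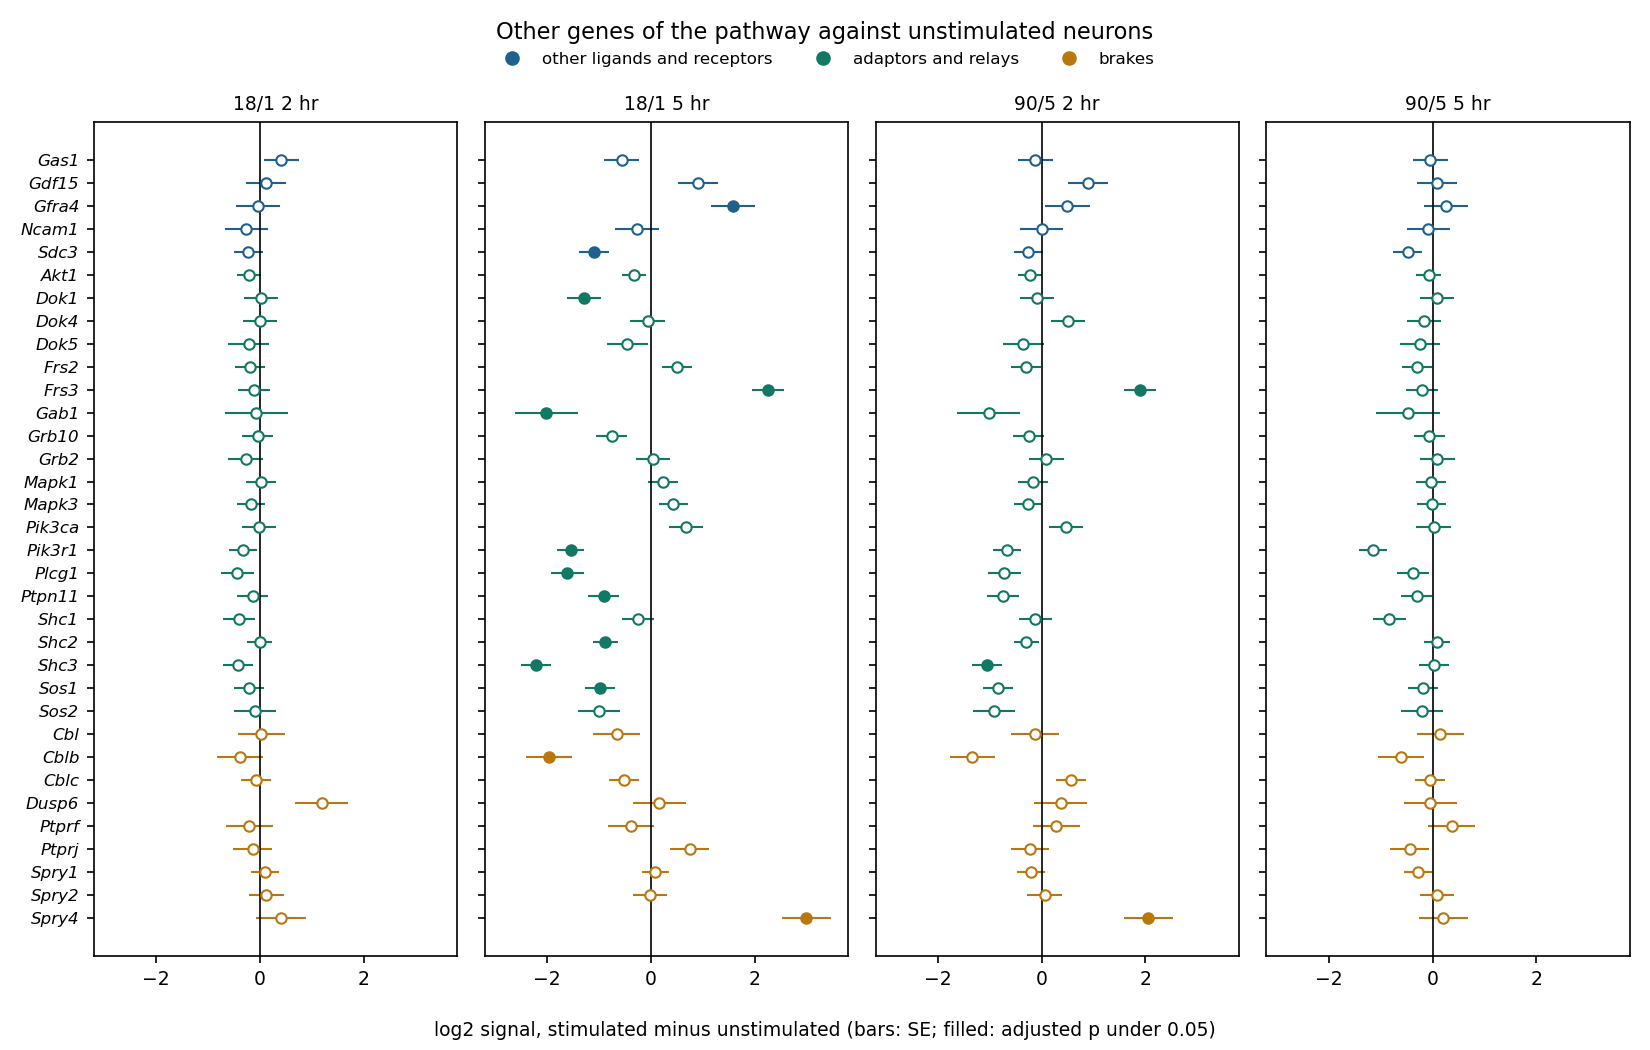
Differences from unstimulated neurons in log2 signal (horizontal axis, bars are SE) for the 34 tested genes of the pathway list (vertical axis), coloured by role, in each stimulated condition. Filled points passed an adjusted p of 0.05: 13 after 18/1 5 hr, 3 after 90/5 2 hr and none in the other 2 conditions.

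The 2 genes whose log2 signals over the 20 samples were most like those of Nrtn, among 10354 genes compared, were Tmem120b (Pearson r = 0.952) and Ccr8, a chemokine receptor gene (r = 0.945). Tmem120b was 11.93 and 11.74 on array 5 and 10.85 and 10.78 on array 6 of 18/1 5 hr, and Ccr8 was 8.12 and 8.13 on array 5 and 7.15 and 7.08 on array 6. Both thus shared the gap between these arrays, as well as their highest values at 90/5 5 hr, where Tmem120b spanned 11.80 to 12.25 and Ccr8 8.07 to 8.40. Unlike Nrtn, both had array 5 values inside these spans, at 11.93 for Tmem120b and at 8.12 and 8.13 for Ccr8. The Ccr8 spot was well above background in only 1 of the 4 samples of 90/5 2 hr. The samples compared share arrays and slides, and the correlations are descriptions.

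Markers of cell types were read beside these results, because RNA came from whole cultures and fewer cells of a type cannot be told apart from less RNA per cell. All 15 sensory neuron markers were well above background in all 20 samples, with a summed log2 level of 18.95 to 19.82, and so were 6 of 6 fibroblast markers, 6 of 10 markers of Schwann cells and satellite glia, 2 of 4 of microglia and macrophages, 1 of 4 of astrocytes and 1 of 5 of spinal motor neurons, a cell type of the spinal cord. Erbb3 was the 1 glial marker that was well above background in no sample. The summed fibroblast level was 14.08 to 15.45 in unstimulated, 14.78 to 15.76 in 18/1 2 hr, 16.03 to 16.22 in 18/1 5 hr, 14.38 to 16.31 in 90/5 2 hr and 14.37 to 15.45 in 90/5 5 hr samples. It was thus higher at 18/1 5 hr, where Gfra1 and Artn had their lowest means, than in any unstimulated sample. The summed astrocyte level was 9.35 to 9.81 in unstimulated and 10.10 to 11.48 in 18/1 5 hr samples, and that of motor neurons 11.92 to 12.25 and 12.86 to 13.26. The glial sum was 16.26 to 16.44 in unstimulated, 15.65 to 16.71 in 18/1 5 hr and 16.22 to 16.60 in 90/5 5 hr samples. Of 4 markers of the non-peptidergic Ret lineage 2 were well above background in all 20 samples. The sum of these 4 was 14.72 to 15.26 in unstimulated, 14.50 to 15.66 in 18/1 5 hr and 14.33 to 15.17 in 90/5 5 hr samples. The part of these levels in the differences of Gfra1, Artn and Nrtn was not tested.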

How the data were processed

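RNA of 20 samples was hybridised on 10 two-colour Agilent arrays, and the authors deposited the scanner's spot intensity and background intensity for each colour as Feature Extraction wrote them (versions 10.7.1.1 and 10.7.3.1 per the file headers). From each colour the mean spot intensity and the median background were used, and 36 further columns per colour were not. Intensities were corrected with normexp (offset 50), normalized by loess within arrays, with control spots at weight 0, and by Aquantile between arrays, and taken to log2. The spot filter followed the study's methods: at least 2 times background and not marked as non-uniform in all 20 samples, which left 10355 genes. Members that failed it were fitted among the 18744 genes that passed in all 4 samples of at least 1 condition. In limma 3.58.1 (R 4.3.3) condition means were fitted over all samples with colour as a term and array as a random block (correlation 0.529 and 0.639). A gene with several probes was represented by the brightest probe that met the filter, and in summed marker levels by its brightest probe whatever the filter. P-values were adjusted by Benjamini-Hochberg within each comparison and called under 0.05. Where fits had missing spots, these were those marked as non-uniform, in the setting so named. The fit was tested on simulated data.

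For 18/1 5 hr and 90/5 2 hr the labels give both samples of an array the same dye, so which colour of an array holds which replicate is not settled, and these samples are named by array and colour. Replicate numbers were checked for pairing by the correlation of deviations from the condition means. In the 4 same-numbered pairs of unstimulated and 18/1 2 hr it was 0.41 to 0.72, and 0.24 to 0.53 after colour. Each condition holds 2 samples of a colour, so after colour the 4 values repeat in pairs and are not separate checks. The numbers also coincide with colour, so these correlations do not settle whether the 2 conditions were paired. All 7 members were to be named, with at most 3 called genes of the pathway list per comparison with unstimulated by size of change and the 2 genes most like a member that passed in all 20 samples. Members, lists and tests were chosen with earlier results of these data known. Alternatives changed the background correction, normalization, filter, saturated probes, array block, samples in the fit, test (the methods' t-test with its 1.4-fold limit), replicate block, and left out each sample and array. Promoter sequences are from a set of upstream regions of RefSeq GRCm38.p6, and this set held 4 of 7 members. Array signal has no read depth, and the number of arrays limits the precision.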

Additional observations from a re-analysis of the deposited data

Results flagged for a closer look

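Artn and Nrtn were singled out because the difference between the 90/5 and 18/1 patterns was itself different at 5 hr and at 2 hr. For Artn this change was 2.06 on the log2 scale, from a difference of -0.51 at 2 hr to 1.55 at 5 hr. For Nrtn it was 1.95, from -0.80 at 2 hr to 1.15 at 5 hr. These are 2 of 6 tested members, where 44.9% of the 10355 genes and 38.4% of the 18744 were called in this contrast. Both conditions on slide 2 enter it with a minus sign, so it cannot be told apart from a difference between slides. Among the 35 sets of 4 samples (7 members in 5 conditions), no sample lay far enough from the others to pass Dixon's 95% critical value. Chance passes about 1 such set in 20, and the gap of Nrtn at 18/1 5 hr lies between arrays of 2 samples each, which this measure does not detect.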

How the results depend on the processing

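The count of members called was 1 for 18/1 5 hr against unstimulated, and became 2 with median centring, with the methods' t-test (unadjusted and adjusted) or with marked spots missing, 3 with no array block and 0 with no filter. From 2 to 5 hr of 18/1 it was 1, and became 2 with median centring or either t-test, 3 with no array block, and 0 with no filter or without saturated probes, while with only the conditions compared it stayed at 1 with Artn called in place of Gfra1. From 2 to 5 hr of 90/5 it was 2, and became 0 with no filter, with means of arrays or with the adjusted t-test, and 1 with only the conditions compared. Between patterns at 5 hr it was 2, and became 5 with no array block, 3 (Gfra1 added) with median centring or the unadjusted t-test, and 1 with means of arrays, only the conditions compared or the adjusted t-test. For 90/5 2 hr against 18/1 5 hr it was 0, and 2 with no array block or the unadjusted t-test, which gave 1 for 90/5 2 hr against unstimulated, 90/5 5 hr against unstimulated and the patterns at 2 hr.

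With a sample or array left out, counts ranged from 0 to 3 for 18/1 5 hr against unstimulated and for 5 against 2 hr of 18/1, 0 to 2 for 5 against 2 hr of 90/5 and for 90/5 2 hr against 18/1 5 hr, 0 to 1 for 90/5 2 hr against unstimulated and against 18/1 2 hr, 0 to 4 between patterns at 5 hr and 2 to 4 for the change of the pattern difference. Without array 5, 6, 7 or 8 further members passed.

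Gdnf at 18/1 5 hr against unstimulated turned from 0.37 to -0.16 with median centring and -0.58 with marked spots missing or without array 6 (leave-out range -0.58 to 1.32). Without array 6 Nrtn turned to 0.084 against unstimulated (range -1.47 to 0.084) and to 0.13 against 18/1 2 hr (range -1.42 to 0.13). Ret between patterns at 5 hr turned from -0.78 to 0.11 with median centring. At 18/1 5 hr Ret also turned under 1 alternative, from 0.23 to -0.48 against unstimulated and from 0.32 to -0.39 against 18/1 2 hr. Of 36 member differences not followed singly, 12 changed sign under an alternative. The cause of these turns was not tested. Median centring moved the median of all genes from -0.23 to -0.81 for 18/1 5 hr against unstimulated and from 0.23 to 0.93 between patterns at 5 hr. The settings with marked spots missing and with the background rule alone were chosen after seeing the data.

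Replicate numbers are shared by unstimulated, 18/1 2 hr and 90/5 5 hr, where they coincide with colour. Between unstimulated and 90/5 5 hr 2 of 4 same-numbered pairs had deviations correlated over 0.1 (r from -0.05 to 0.48), so these conditions share only a number. The replicate block took the count for 90/5 5 hr against unstimulated from 0 to 1, Artn at 0.76 (adjusted p = 0.0340, limma), and left that for 18/1 2 hr against unstimulated at 0. The other comparisons hold samples whose replicate number is not settled, and the block was not run for them.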
